A study of Sus scrofa with 8 samples.

Results

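miR-200c-3p and its seed relatives are the small RNAs of porcine milk exosomes that begin with the same 8 nt as miR-200c-3p. Members were the inserts of 18 to 26 nt, that is the reads after removal of the 3′ adaptor, whose nt 1 to 8 were those of miR-200c-3p in the primer list of the study. They made up 567368 of 31322051 such inserts over 8 libraries. Inserts that also matched miR-200c-3p at nt 9 to 18 were counted as miR-200c-3p, which gave 477554 counts. Of these totals 1 library, 0d-3, held 530133 of the counts of the family and 448119 of those of miR-200c-3p, and the other 7 libraries held 37235 of 17425924 inserts (0.214%, against 3.81% in 0d-3). The rest were the relatives, and each group of inserts with the same first 18 nt is called a unit.

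The samples were small RNA of milk exosomes from 3 healthy Yorkshire sows nursing their second litter. On the day of birth each sow gave 1 library (the 0-day libraries 0d-1, 0d-2, 0d-3). For the later stages (3 and 7 days, then weekly at 14, 21 and 28 days) RNA of the sows was pooled into 1 library per stage. The 4 libraries of 0 and 3 days are colostrum and the 4 of 7 to 28 days are mature milk, so that libraries serve as replicates of their milk class. In colostrum 3 of them are single sows at 0 days and 1 is a pool. In mature milk each is a pool of another stage, and all come from the same sows. The p-values thus mix the spread between sows at 0 days with that between pooled stages, and measure neither alone. All animals were untreated, and exosomes were precipitated from defatted, filtered milk with ExoQuick, a reagent that does not select vesicles by cell of origin. The files hold small RNA alone, so that no exosome or epithelial protein marker can be checked. In RNA of many vesicles, fewer vesicles that carry a miRNA and less of it per vesicle cannot be told apart.

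A miRNA finds its targets mainly through its seed, the bases that follow its first one, so that miRNAs with a shared seed bind many of the same mRNAs. The miR-200 family is abundant in epithelial cells, including those of the mammary gland, and is best known for repressing ZEB1 and ZEB2, transcription factors that silence epithelial genes such as E-cadherin. miR-200b, miR-200c and miR-429 share a seed, and miR-200a and miR-141 carry another that differs by a single base. miR-200c is transcribed together with miR-141, and miR-200b with miR-200a and miR-429. miR-141, miR-200a and the opposite arms of these hairpins were not analysed here.

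The most frequent insert of each of the 3 main members is shown from its 5′ end, with T for U, to show the bases that the family shares. Capitals mark the seed, nt 2 to 8.
miR-200c-3p: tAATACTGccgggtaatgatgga
miR-200b type: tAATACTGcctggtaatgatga
miR-429 type: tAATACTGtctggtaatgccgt
The first is the form of 23 nt in the primer list. No catalogue of pig miRNAs was used here, so that "miR-200b type" and "miR-429 type" are names from general knowledge of the family for the units that carried these sequences. The same relatives are shown again with capitals for the bases that differ from miR-200c-3p in nt 9 to 18, together with a further unit, called the T14G unit, that was large in 1 library.
miR-200b type: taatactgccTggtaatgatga
miR-429 type: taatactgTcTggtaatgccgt
T14G unit: taatactgccgggGaatgatgga
Counted from the 5′ end, with the base of miR-200c-3p first, the miR-200b type differed by G11T, the miR-429 type by C9T and G11T, and the T14G unit by T14G alone. The miR-200b and miR-429 types also differed from miR-200c-3p after nt 18, where the T14G unit had the same bases as miR-200c-3p.

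The library 0d-3 stood apart from the rest. In it, 76.2% of the reads held an insert of 18 to 26 nt, against 3.35 to 18.2% in the other 7. One of 4 recurrent leaders of 5 nt began 42.5 to 73.6% of the inserts in those 7 libraries and 0.105% in 0d-3. The inserts numbered 13896127 in 0d-3 and 803940 to 4391269 in the others. Reads were 36 nt long at 7 and 21 days and 40 nt in the other 6 libraries, so that both short-read libraries are mature milk. The main comparisons of the milk classes below are given with and without 0d-3. DESeq2 was run only with 0d-3 included. Ranges called intervals are 95% Wilson intervals. They reflect the error of counting and nothing else, as reads were not marked with molecular identifiers.

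The family was found in every library. miR-200c-3p held most of its counts throughout, the miR-200b type came next and the miR-429 type was the lowest of these 3. In the colostrum libraries, miR-200c-3p gave 1753 counts per 1000000 inserts of 18 to 26 nt (CPM) in 0d-1, 1780 in 0d-2, 32248 in 0d-3 and 1038 at 3 days. In mature milk it gave 1562, 1546, 2561 and 1631 CPM at 7, 14, 21 and 28 days. The library 0d-3 was above every other, and the 3 remaining colostrum libraries fell among or below the mature milk libraries. Over the 7 libraries other than 0d-3 the level ranged 2.47-fold, with a mean of 1696 ± 454 (SD, n = 7), and 0d-3 was 19.01-fold higher than this mean.

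The order of the 7 libraries was 21 days, 0d-2, 0d-1, 28 days, 7 days, then 14 days and last 3 days. The intervals of 0d-2 (1741 to 1820) and 0d-1 (1708 to 1799) overlapped, as did those of 7 days (1478 to 1651) and 14 days (1498 to 1597). The library of 3 days (990 to 1088) lay below all the others and that of 21 days (2476 to 2650) above these 6 by more than counting error. Each of these later stages is a single pooled library, so that the spread between samples of a stage is known for 0 days alone.

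The miR-200b type, a relative from the other transcript of the family, gave 367 CPM in 0d-1, 384 in 0d-2, 1925 in 0d-3 and 221 at 3 days. In mature milk it gave 398, 330, 516 and 386 at 7, 14, 21 and 28 days. It had the same highest and lowest libraries as miR-200c-3p, but 0d-3 was 5.18-fold above the mean of the other 7 (372 ± 87.9, n = 7). The miR-429 type, from the same transcript as miR-200b, gave 44.8, 35.98, 237 and 29.7 CPM in the 4 colostrum libraries in that order and 56.0, 39.7, 45.0 and 38.2 in mature milk. It was 5.72-fold higher in 0d-3 than the mean of the others (41.3 ± 8.32, n = 7), close to the fold of the miR-200b type. At 7 days it rested on 45 counts and at 3 days on 49.

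**Figure D1:**
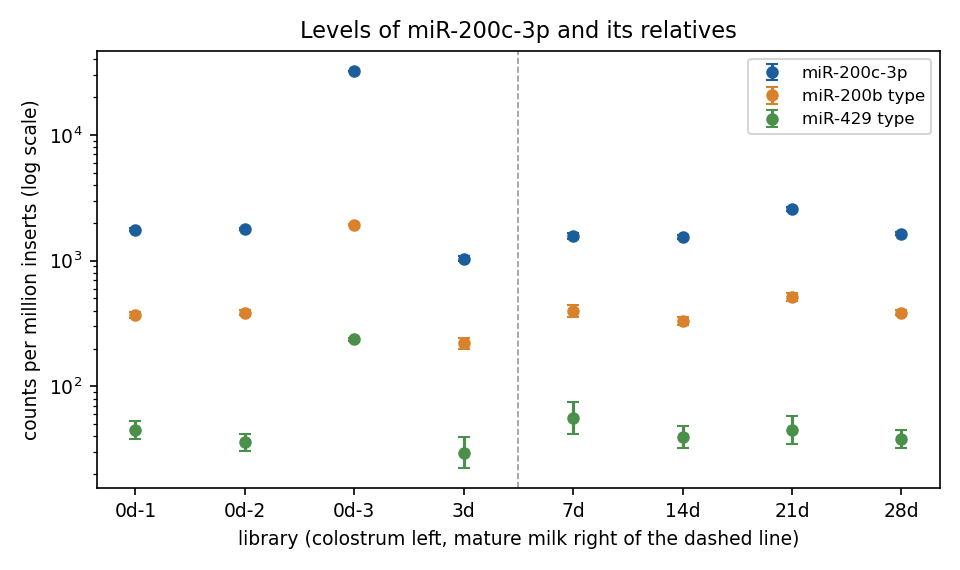
CPM of inserts of 18 to 26 nt (log scale) of miR-200c-3p, the miR-200b type and the miR-429 type in each library. Points are single libraries with 95% Wilson intervals of counting. In 0d-3 all 3 members were above every other library, miR-200c-3p at 32248, and the order of the 3 was the same in all 8 libraries.

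Colostrum and mature milk were compared by two-sided exact permutation tests on their means, for which the smallest p is 0.0286 with 4 against 4 libraries and 0.0571 without 0d-3. The mean of miR-200c-3p was 9205 ± 15366 CPM in colostrum and 1825 ± 492 in mature milk (n = 4 each), a log2 ratio of 2.33 with an exact p of 0.743 (adjusted p = 0.943 over 5 shares). Without 0d-3 the log2 ratio was -0.26 (exact p = 0.571), so that the direction rested on that library. The same held for the whole family (log2 ratio 2.25, and -0.26 without 0d-3), the miR-200b type (0.83 and -0.33) and the miR-429 type (0.96 and -0.28). The groups overlapped in each of these measures. With 40-nt reads alone this log2 ratio for miR-200c-3p came to 2.53, and -0.060 without 0d-3 (exact p = 1).

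In edgeR's quasi-likelihood test over 15212 units that passed the filter on low counts, 0% were called at an adjusted p under 0.05, with 260 at an unadjusted p under 0.05. DESeq2 called 46 of the 15212, all 46 lower in colostrum, but gave no p for the members. None of the 3 main members was called by edgeR. The log2 fold change of colostrum over mature milk was 4.07 for miR-200c-3p (SE 2.08, edgeR adjusted p = 0.975), 2.34 for the miR-200b type (SE 1.85, adjusted p = 0.975) and 2.52 for the miR-429 type (SE 1.77, adjusted p = 0.975). The median over the 15212 units was -0.33. The TMM factors, which scale the library totals in this fit, were 1.55, 1.53, 0.342 and 0.438 in the colostrum libraries, in order. In mature milk they were 1.02 to 1.57. With the totals unscaled, edgeR gave log2 fold changes of 2.33, 0.83 and 0.96 for these 3 members, with a median of -0.44. In edgeR with TMM factors and without 0d-3, 0 of 15492 units were called, with 3549 at an unadjusted p under 0.05. The value of miR-200c-3p was then 0.26 (SE 0.53), against a median of 0.30 over the units tested. That of the miR-200b type was 0.20 (SE 0.54) and that of the miR-429 type 0.31 (SE 0.57). The T14G unit did not pass the filter on low counts.

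A scaling by RLE factors, a median-ratio method, gave another call. Its factors were 0.586 to 0.887 in colostrum and 1.14 to 1.66 in mature milk, so that they alone separated the milk classes. Scaled in this way, the groups no longer overlapped for miR-200c-3p (log2 ratio 3.48, exact p = 0.0286, adjusted p = 0.0357 over 5 shares), the miR-200b type (1.91) or the miR-429 type (2.03), the last pair with the same p. The median log2 fold change of all 15212 units was then 0.27, in place of -0.33. How many of these units also stopped overlapping was not counted, so that the loss of overlap cannot be read as a trait of the members. In edgeR with these factors 0 of 15212 units were called, with 182 at an unadjusted p under 0.05. Without 0d-3 these factors gave miR-200c-3p a log2 ratio of 0.60 (exact p = 0.0571, the smallest that 3 against 4 libraries allow). The miR-200b type then had 0.53 and the miR-429 type 0.59, with the same exact p.

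The level depended on what the inserts were counted against. With a total of leader-free inserts, miR-200c-3p gave 5690 CPM in 0d-1, 5727 in 0d-2, 32282 in 0d-3 and 3924 at 3 days, and 3497, 4847, 4458 and 4236 at 7, 14, 21 and 28 days. On this scale 0d-1 and 0d-2 lay above each mature milk library and 3 days lay among them, so that the groups still overlapped (log2 ratio 1.48, exact p = 0.114, and 0.26 without 0d-3, exact p = 0.229). The 21-day library, which had the smallest share of leaders of these 7, was no longer the highest of them. The part of the leaders in its higher CPM of all inserts was not tested. Against the summed counts of the 13 miRNAs of the primer list, miR-200c-3p made up 2.08, 1.90, 14.6 and 1.62% in the colostrum libraries and 1.23, 2.10, 1.53 and 1.81% in mature milk. On this scale its log2 ratio of colostrum over mature milk was 1.60 (exact p = 0.229), and 0.16 without 0d-3 (exact p = 0.457). The excess of miR-200c-3p in 0d-3 over the mean of the other 7 was 6.98-fold without leaders and 8.31-fold among the listed miRNAs. The miR-200b type was higher in 0d-3 by 1.90-fold and 2.26-fold on these scales, and the miR-429 type by 2.07-fold and 2.45-fold. The listed total holds miR-148a-3p, whose log2 ratio of 0d-3 to the mean of the other 7 was -8.21 by CPM. With miR-148a-3p left out, the percent of miR-200c-3p rose from 2.08 to 5.70 in 0d-1 and stayed at 14.6 in 0d-3. The folds on the listed scale thus depend on that miRNA. For the miR-200b and miR-429 types they were not computed without it.

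**Figure D2:**
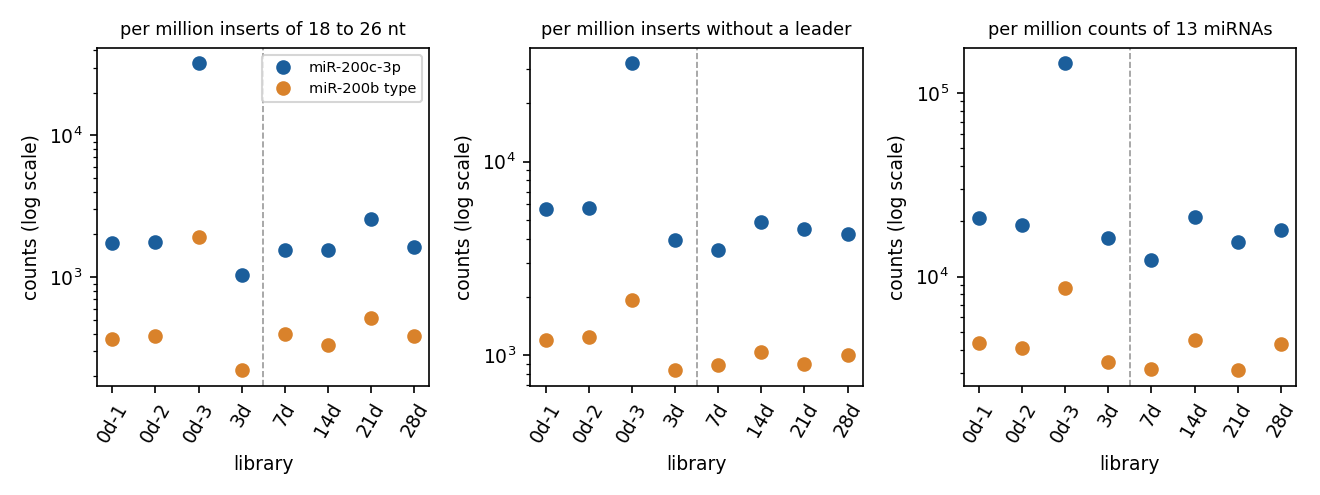
Counts (log scale) of miR-200c-3p and the miR-200b type in each library, as CPM of inserts of 18 to 26 nt, of inserts without a leader and of the 13 listed miRNAs. Each point is 1 library, with colostrum left of the dashed line. The 0d-3 point of miR-200c-3p is 19.01-fold, 6.98-fold and 8.31-fold above the mean of the other 7 in the 3 panels.

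Among the 13 miRNAs of the primer list, miR-200c-3p held rank 8 in 0d-1, rank 10 at 3 days, rank 3 in 0d-3 and rank 9 in the other 5 libraries. Set against the mean of the other 7, the log2 ratio of 0d-3 was 4.25 for miR-200c-3p, the highest of the 13. For the 12 others it had a median of 2.45, from -8.21 for miR-148a-3p to 3.88, and 11 of the 12 were higher in 0d-3. With miR-148a-3p left out of the total, miR-200c-3p made up 14.6% of the listed counts in 0d-3 and 4.75 to 5.70% in the others.

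The patterns over the 8 libraries that were most like that of miR-200c-3p, by Pearson's r of log2(CPM + 1), were those of miR-191-5p (0.993), let-7a-1-5p (0.993), miR-25-3p (0.989), miR-30c-5p (0.977) and miR-375-3p (0.974). These values rest mostly on 0d-3, which was high for each of them, and the points share the depth and the leaders of their libraries. Without 0d-3 the values for these 5 were 0.957, 0.936, 0.920, 0.891 and 0.801, and 2 of the 5 stayed among the first 5. miR-30d-5p (0.988) and miR-30a-5p (0.982) were then the most alike.

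The composition of the family does not depend on the total of the library. For each 100 counts of miR-200c-3p there were 20.9 counts of the miR-200b type in 0d-1, 21.6 in 0d-2, 5.97 in 0d-3 and 21.3 at 3 days. In mature milk there were 25.5, 21.3, 20.1 and 23.7 at 7, 14, 21 and 28 days. The 7 libraries other than 0d-3 lay within a narrow band (22.1 ± 1.85, n = 7) and 0d-3 lay far below it. Of the counts of both, the miR-200b type was 20.3% at 7 days (interval 18.4 to 22.4) and 19.1% at 28 days (18.3 to 20.1), both above the interval of 0d-1 (16.4 to 18.2), while the intervals of 0d-1, 0d-2, 3 days, 14 days and 21 days overlapped.

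For each 100 counts of miR-200c-3p the miR-429 type gave 2.56, 2.02, 0.734 and 2.86 counts in the colostrum libraries and 3.58, 2.57, 1.76 and 2.34 in mature milk. Here too 0d-3 was the lowest, and the groups overlapped. The difference between the milk classes, colostrum minus mature milk, was -5.22 for the miR-200b type (exact p = 0.229) and -0.52 for the miR-429 type (exact p = 0.457). Without 0d-3 the differences were -1.39 (exact p = 0.457) and -0.082 (exact p = 0.914). After adjustment over 11 measures of composition and ends the lowest p was 0.629.

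All relatives together made up 21.4, 20.9, 15.5 and 20.4% of the family in the colostrum libraries and 23.8, 20.4, 18.8 and 21.6% in mature milk, a difference of -1.61 percentage points (exact p = 0.429) or, without 0d-3, -0.26 (exact p = 0.857). What they were made of differed more. The miR-200b type gave 76.7 to 87.2% of the relatives and the miR-429 type 7.60 to 11.5% in the 7 libraries other than 0d-3. In 0d-3 the miR-200b type gave 32.6%, the miR-429 type 4.01% and units that differed from miR-200c-3p at nt 14 alone 50.3%. With those units left out, relatives made up 8.33% of the family in 0d-3.

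**Figure D3:**
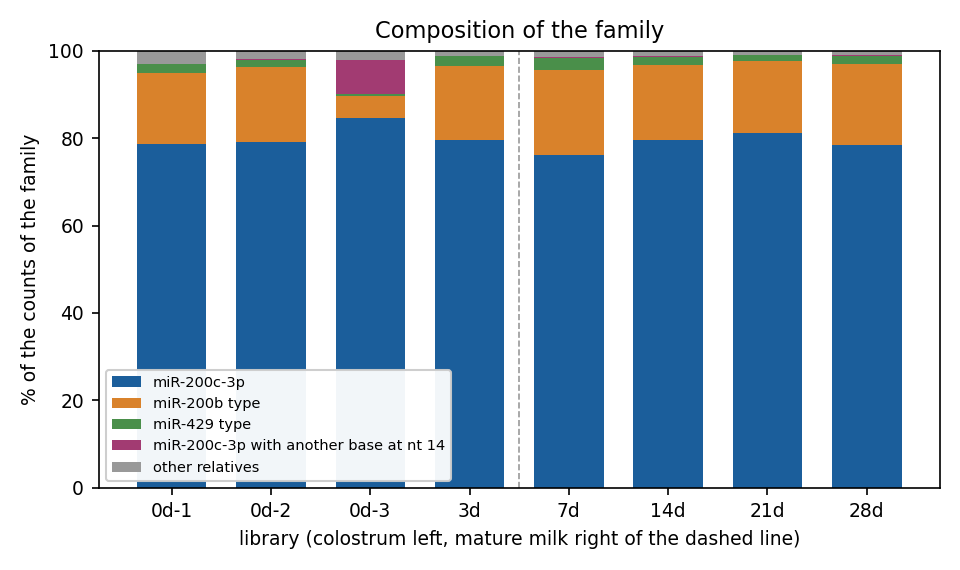
Percent of the counts of the family in each library that belonged to miR-200c-3p, the miR-200b type, the miR-429 type, units that differed from miR-200c-3p at nt 14 alone, and other relatives. Each bar is 1 library, with colostrum left of the dashed line. miR-200c-3p made up 76.2 to 84.5% in all 8 libraries, and the nt 14 units 7.79% in 0d-3 and at most 0.303% in the others.

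In all, 338 units carried the 8 nt in at least 1 library. Of these, 4 were found in every library, 246 were found in 0d-3 alone, and 78 had more than 10 counts in some library. Among the 246, 33 had more than 10 counts. The share of units found in 0d-3 alone was not counted outside the family, so that it cannot be called a trait of the family. The number per library went from 17 at 7 days to 62 in 0d-2 and 304 in 0d-3, in the order of depth at both ends. Relatives other than the miR-200b type, the miR-429 type and the nt 14 units made up 0.935 to 2.92% of the family.

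Units 1 base away from miR-200c-3p give a background for the miR-200b type, which is 1 base away within these 18 nt. Of the changes possible at nt 11, G11T gave 5.97 to 25.5 counts per 100 of miR-200c-3p. G11A and G11C together gave at most 0.194, and 0 to 11 counts in each of the 7 libraries other than 0d-3. The number of G11T counts was at least 90.4 times that of the other changes at nt 11 in each library that had any.

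At nt 14 the library 0d-3 differed from the rest. Changes at that position gave 9.21 counts per 100 of miR-200c-3p in 0d-3 and 0 to 0.387 in the other 7, from 0 counts at 3 days to 23 at 28 days. All 3 bases took part in 0d-3, with T14G at 5.29, T14A at 2.19 and T14C at 1.73 per 100. The T14G unit had 23712 counts in 0d-3 (1706 CPM), 5 in 0d-2, 2 at 7 days, 1 each at 14 and 21 days and 13 at 28 days. It had 0 counts in 0d-1 and at 3 days, which allows up to 0.927 and 1.82 CPM by a limit of 3 counts. Outside 0d-3 it reached 3.57 CPM at most. The T14G unit was chosen by its mean share over the libraries, which rested on 0d-3, as the other 7 had a mean of 1.20 CPM. Comparisons of its level that include 0d-3 are thus not independent of that choice and give no support. Its difference between the milk classes (log2 ratio 7.88, exact p = 0.943) became -2.26 without 0d-3.

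The other positions of miR-200c-3p from nt 9 to 18 gave 0.0196 to 0.728 per 100 in 0d-3, the highest at nt 17. In the 7 other libraries the highest value at any position was 1.02, at nt 10. The nt 14 changes were also frequent in the relatives of 0d-3, with 4.35 per 100 counts of the miR-200b type and 8.94 per 100 of the miR-429 type. In the other 7 libraries the miR-200b type had 0 to 0.125 per 100, from 0 or 1 count each. The miR-429 type had 5.04 per 100 at 28 days (7 counts against 139), 3.45 at 21 days (2 against 58), 2.22 at 7 days (1 against 45) and 1.38 in 0d-1 (2 against 145), all of them by T14G, and 0 in 0d-2 and at 3 and 14 days. For that member the changes were thus not particular to 0d-3. In the 12 other listed miRNAs of 0d-3, changes at nt 14 gave 0.00744 to 0.282 per 100, with a median of 0.126. Among the listed miRNAs other than let-7a-1-5p, changes at other positions reached 9.50 per 100 at nt 17 of miR-375-3p and 3.81 at nt 18 of miR-25-3p in the same library. Errors of sequencing and differences in the RNA cannot be told apart in these counts.

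**Figure D4:**
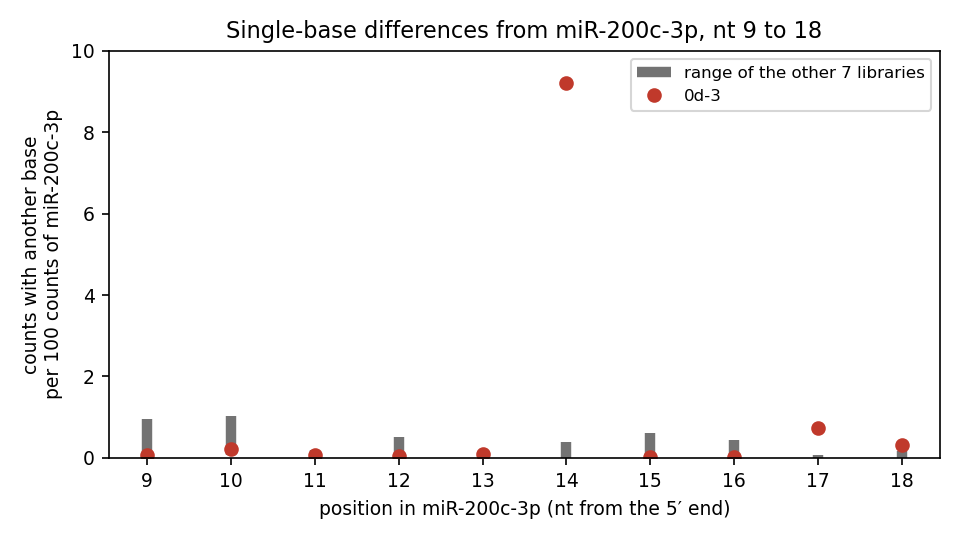
Counts of units with another base at 1 position, per 100 counts of miR-200c-3p, for nt 9 to 18. Points are 0d-3, grey bars span the lowest to the highest of the other 7 libraries, and the miR-200b type is left out at nt 11. At nt 14 the 0d-3 point is 9.21 and the other libraries reach 0.387.

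miR-200c-3p ended mostly as the listed form of 23 nt in every library. It did so most often in 0d-3 and least often at 7 days. Its 5 most frequent forms are shown with capitals for the bases after nt 18, since they differ there alone.
Form of 23 nt: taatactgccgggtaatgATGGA
Shorter by 1: taatactgccgggtaatgATGG
Longer by A: taatactgccgggtaatgATGGAA
Shorter by a pair of bases: taatactgccgggtaatgATG
Other end: taatactgccgggtaatgATGA
The listed form of 23 nt made up 65.2, 65.0, 79.2 and 62.6% of miR-200c-3p in the colostrum libraries. In mature milk it made up 58.8, 64.5, 65.5 and 65.3%, in the order of the days. It was highest in 0d-3 and lowest at 7 days, a library of 36-nt reads, while 21 days, the other such library, lay with the rest. The form shorter by 1 was the reverse, with 14.3% in 0d-3, 33.4% at 7 days and 24.9 to 30.3% in the other 6 libraries.

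The form longer by A made up 1.67 to 3.76% over the 8 libraries, the form of 21 nt 0.361 to 1.39% and the form of 22 nt that ends in GA 0.260 to 1.75%. For each 100 counts of the 23-nt form, 2.85 to 5.79 counts had 1 further A, 0.949 to 1.805 a further T and 0.0541 to 0.387 a further G. A was thus the most frequent further base in each library. No hairpin sequence was used, so that an added base and one copied from the gene cannot be told apart. The percent of inserts that matched the listed sequence to its end was 68.0 ± 7.59 in colostrum and 63.5 ± 3.20 in mature milk (n = 4 each, exact p = 0.457). Without 0d-3 the colostrum value was 64.3 ± 1.44 (n = 3, exact p = 0.914). Ends shorter than the listed form made up 25.4 ± 7.53% in colostrum and 29.7 ± 3.89% in mature milk, longer ones 4.31 ± 0.908% and 4.04 ± 1.12%, and ends outside the listed sequence 2.25 ± 0.421% and 2.78 ± 0.554% (n = 4 each). None of these differences passed the test (exact permutation p = 0.171 to 0.657). Without 0d-3 the colostrum values were 29.0 ± 2.86% for shorter, 4.35 ± 1.11% for longer and 2.37 ± 0.419% for outside ends (n = 3, exact permutation p = 0.343 to 0.8). The difference in shorter ends, colostrum minus mature milk, was then -0.64 percentage points in place of -4.22, so that most of it rested on 0d-3. Inserts of 23 nt of any end showed the same (difference 4.47 percentage points, exact p = 0.457, and 0.63 without 0d-3).

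The 3 main members ended at different lengths in every library. The mean length of miR-200c-3p ran from 22.6 nt at 7 days to 22.9 nt in 0d-3, that of the miR-200b type from 22.0 to 22.4 nt and that of the miR-429 type from 21.6 to 22.1 nt. miR-200c-3p was longer than the miR-200b type by 0.603 ± 0.0615 nt (SD, n = 8) and than the miR-429 type by 0.901 ± 0.107 nt, and the miR-200b type was longer than the miR-429 type by 0.298 ± 0.0719 nt. Each difference had the same sign in 8 of 8 libraries, with an exact paired permutation p of 0.00781 (adjusted p = 0.00781 over 3 pairs), the smallest that 8 libraries allow. Without 0d-3 the differences were 0.622, 0.924 and 0.302 nt, with the same sign in 7 of 7 libraries (exact permutation p = 0.0156, again the smallest). These tests were chosen after the lengths were seen. The libraries all come from the same 3 sows, those of the later stages as pools, so that they are not independent pairs.

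The frequent forms of the relatives are shown in the same way, to give the bases at which they stop.
miR-200b type, 22 nt: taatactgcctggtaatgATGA
miR-200b type, 23 nt: taatactgcctggtaatgATGAC
miR-200b type, 21 nt: taatactgcctggtaatgATG
miR-429 type, 22 nt: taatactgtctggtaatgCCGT
miR-429 type, 21 nt: taatactgtctggtaatgCCG
miR-429 type, 23 nt: taatactgtctggtaatgCCGTT
The 22-nt form of the miR-200b type made up 71.2 to 77.4% of that unit in 7 libraries and 55.8% in 0d-3. Its 23-nt form with a further C, which may be added or copied from the gene, made up 3.44 to 9.54% in the 7 and 22.0% in 0d-3. The 21-nt form of the miR-429 type made up 25.9 to 42.2% in the 7 and 9.07% in 0d-3, and its 22-nt form 42.2 to 58.2% and 67.4%. In 0d-3 all 3 members were thus longer on average than in any other library, through different forms. At 7 days each was at its shortest.

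In 0d-3 the T14G unit had nearly the same ends as miR-200c-3p, with 78.7% in the form of 23 nt (interval 78.2 to 79.2) and 14.8% in the form shorter by 1 (14.4 to 15.3). miR-200c-3p itself had 79.2% (79.1 to 79.4) and 14.3% (14.2 to 14.4) in these forms. The other libraries held too few counts of the T14G unit, 13 at most, to give its ends.

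**Figure D5:**
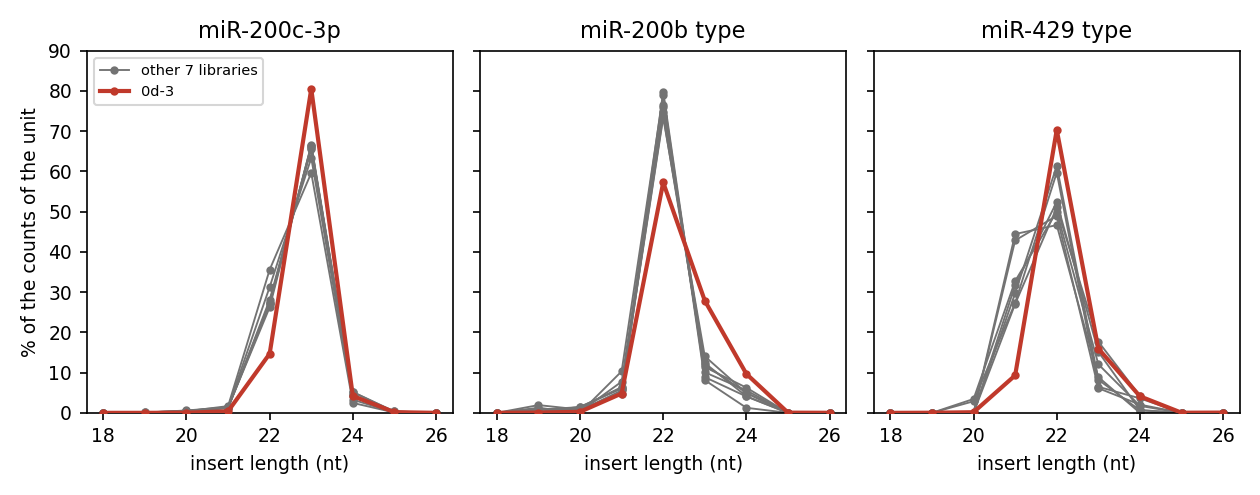
Percent of the counts of miR-200c-3p, the miR-200b type and the miR-429 type at each insert length from 18 to 26 nt. Each line is 1 library, red for 0d-3 and grey for the other 7. miR-200c-3p peaked at 23 nt in all 8 libraries with 59.6 to 80.5%, and both relatives peaked at 22 nt.

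The 5′ end varied less than the 3′ end. Inserts that held nt 4 to 18 of miR-200c-3p at another offset are not members, and are given beside them. An insert that starts 1 base earlier was mostly the following form, in which the capital marks the base before the usual start.
One base earlier: Ctaatactgccgggtaatgatgga
Inserts with this C made up 1.32, 0.881, 0.980 and 0.919% of those with the core in the colostrum libraries and 0.924, 1.01, 0.977 and 1.31% in mature milk. The values of 0d-3 lay among the others here. Inserts that started 1 base later made up 0.0296 to 0.233% in the 8 libraries. All earlier starts together made up 1.94 ± 0.916% in colostrum and 2.15 ± 0.834% in mature milk, and all later starts 0.233 ± 0.0276% and 0.337 ± 0.258% (n = 4 each, exact permutation p = 0.714 and 0.543). Without 0d-3 the colostrum values were 2.26 ± 0.817% and 0.241 ± 0.0281% (n = 3, exact permutation p = 1 and 0.629), and the difference in earlier starts turned from -0.21 to 0.11 percentage points.

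A leader directly before the complete start of miR-200c-3p was found in 5.38% of its reads in 0d-1 (interval 4.85 to 5.97), 5.24% in 0d-2 and 1.52% at 3 days. In mature milk it was found in 0.598% at 7 days (0.303 to 1.18), then 4.33% (14 days), 1.06% (21 days) and 7.02% (28 days). In 0d-3 it was found in 0 of 449501 reads, which allows a share of up to 0.000667% by the limit of 3 counts. Such reads are outside the members.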

How the data were processed

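Small RNA from porcine milk exosomes had been sequenced on an Illumina Genome Analyzer II. The authors deposited, for each of the 8 libraries, the counts of distinct reads, not normalized, with the adaptor still attached. The aligner and genome of the study were not used here. The adaptor was removed at the first match of its first 8 nt, and inserts of 18 to 26 nt were counted unless a base was undetermined.

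The members and lists were chosen with earlier results of these data known. The text names miR-200c-3p, the 2 largest relatives by mean share (the miR-200b type and the T14G unit), their most frequent end forms, the 12 other miRNAs of the primer list and the 5 of them most like miR-200c-3p. The miR-429 type falls outside that rule and was added because the definition of the family names it. The groups of samples come from the labels, and the division into colostrum and mature milk from the methods of the study.

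Shares were compared by exact permutation tests with Benjamini-Hochberg adjustment, 5 shares and 11 measures of composition and ends apart. For all units, TMM factors and filterByExpr preceded the quasi-likelihood test of edgeR, at a threshold of 0.05. The code was tested on simulated data. Alternatives were other totals, normalizations, count minimums, adaptor matches and members, DESeq2, and leaving out each library. Without 0d-3, the total of the listed miRNAs, the RLE factors, the 40-nt libraries and edgeR on leader-free units were used as alternatives after the data had been seen. A level of 1546 CPM has an interval of 1498 to 1597. Python 3.11.15, scipy 1.17.1, R 4.3.3, edgeR 4.0.16 and DESeq2 1.42.0 were used.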

Additional observations from a re-analysis of the deposited data

Results flagged for a closer look

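In 12 of 32 groups of 4 libraries, 1 library lay apart from the other 3 by Dixon's criterion, which chance alone passes in about 5% of groups. The 32 groups are measures of the same 8 libraries and are not independent. In colostrum the library was 0d-3 in all 8 cases. It was the highest for miR-200c-3p (32248 CPM), the family (38150), the miR-200b type (1925), the T14G unit (1706), the miR-429 type (237), inserts of 23 nt (80.5% of miR-200c-3p) and the exact listed form (79.2%). It was the lowest for the miR-200b type per 100 counts of miR-200c-3p (5.97). The flag of the T14G unit is no separate result, as that unit was chosen by a mean share that rested on 0d-3. In mature milk the library of 21 days was the highest for miR-200c-3p (2561) and the family (3153), and that of 7 days the lowest for inserts of 23 nt (59.6%) and the exact listed form (58.8%). Both are the libraries of 36-nt reads, and the part of the read length in these values was not tested.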

How the results depend on the processing

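Of the comparisons of colostrum with mature milk, none passed an adjusted p of 0.05 as reported, so that a change of sign below is between values that were not called. No analysis of the milk classes paired by sow was possible, because RNA of the sows was pooled at each later stage. Leaving out 1 library in turn gave log2 ratios of -0.26 to 2.71 for miR-200c-3p, -0.26 to 2.62 for the family, -0.33 to 1.13 for the miR-200b type, -2.26 to 8.44 for the T14G unit and -0.28 to 1.24 for the miR-429 type, with the lowest value in each case without 0d-3. For 3 measures with small differences the sign changed, namely longer ends (-0.25 to 0.64 percentage points, negative without 0d-2 or 7 days), earlier starts with leaders not removed (-0.60 to 0.16, positive without 0d-3 or 28 days) and later starts (-0.17 to 0.015, positive without 7 days). With more than 10 counts of each insert the differences were 0.068 for ends outside the listed sequence, 0.17 for earlier starts and 0.050 for later starts. In 40-nt libraries the difference in longer ends was -0.42. In 40-nt libraries without 0d-3 the log2 ratios were -0.060 for miR-200c-3p, -0.061 for the family, -0.14 for the miR-200b type, -0.081 for the miR-429 type and -2.39 for the T14G unit, and edgeR gave -0.018, -0.11 and -0.017 for miR-200c-3p, the miR-200b type and the miR-429 type. There edgeR called 66 of 23223 units, 65 of them lower in colostrum, and none of the 3 main members was among them. At so small a share of calls the absence of the members says little. In all libraries DESeq2 called 46 of 15212 units, all 46 lower in colostrum, with no p for the members. Without 0d-3 the T14G unit gave -1.84 by inserts without leaders, -2.10 by listed miRNAs and -1.59 by RLE factors. RLE factors gave 3.48, 3.39, 1.91 and 2.03 for miR-200c-3p, the family, the miR-200b type and the miR-429 type, all past the threshold. The share of all units past it by the same test was not counted, and the factors alone separated the milk classes. Of the 5 miRNAs most like miR-200c-3p, 2 stayed by Spearman's rho, 3 by the listed total and 2 without 0d-3. For the changes of sign the cause was not tested. The shallowest library (803940 inserts) limits the miR-429 type.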
